A study of Rattus norvegicus with 56 samples.

Results

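The report concerns 42 cell cycle genes of the rat, chosen by name, in primary cultures of hippocampal neurons that had received repetitive transcranial magnetic stimulation (rTMS). The list was drawn up with earlier results of these data known. It runs from the enzymes that load and copy DNA to the proteins that build the spindle and split the cell. Of the 42 genes, 40 had a probe on the array through a RefSeq accession, out of 16481 genes named in this way, and each was followed by its brightest probe. *Cenpe* and *Mcm5* were not matched. All 40 were tested. The probes of 38 were well above background on all 55 arrays, that of *Ndc80* on 54 and that of *Hmmr* on 45.

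The cultures were prepared from hippocampi of E18 Sprague Dawley rat embryos. They received evenly paced pulses at 1 Hz, short bursts repeated at the theta rhythm with pauses between them (intermittent theta burst, iTBS), or a sham treatment with the coil moved away from the plate. RNA was taken directly after stimulation (0 h) or 2, 8, 24 or 48 h later, and untreated control cultures were taken at 0 h only. Each of the 56 samples was hybridized to its own array with 1 dye, in 16 groups of 3 or 4 arrays. The group of 1 Hz at 2 h had 2 usable arrays, since the spot grid of its replicate 2 had been marked as badly placed and that array was not used. No label says that replicates came from separate preparations of cells, so p-values measure the spread between these samples, which may be technical.

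The descriptions of the samples also carry a running number. The numbers go through all groups in the same order 3 times and then start again with the letter D, and they were read here as 4 series: A (numbers 1 to 18, 11 arrays used), B (19 to 36, 12 arrays), C (37 to 54, 17 arrays) and D (D1 to D15, 15 arrays). The division of the plain numbers into A, B and C was inferred from that order, whereas series D is set by its letter. What a series stands for, such as a preparation of cells or a day, is not stated in the labels. Series D had 1 array in each combination of arm and time and no untreated control.

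Dividing cells switch on these genes in order. The MCM proteins, loaded by Cdc6, form the helicase that opens DNA, and Cdc45 and Gins2 belong to its active form. Ribonucleotide reductase (Rrm1, Rrm2), thymidylate synthase (Tyms) and thymidine kinase (Tk1) supply the nucleotides, and Pcna is the clamp that holds the polymerase on DNA. E2f1 drives transcription at the start of replication and Foxm1 drives that of the genes of mitosis, which cyclin B with Cdk1 then starts. Neurons have left the cell cycle for good, so in cultures of embryonic hippocampus such transcripts are usually ascribed to glia and progenitors that still divide.

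The promoters of many such genes carry elements read by E2F factors, by the complex that binds the cell cycle genes homology region (CHR), and by NF-Y, which binds CCAAT. Sequences of 30 of the 40 genes stood in a RefSeq promoter table of assembly GRCr8, and the 250 bases before the start were searched on both strands for the E2F-like letters TTCCCGC and also TTGGCGC, for the CHR-like letters TTTGAA and also TTCGAA, and for the NF-Y letters CCAAT. That last element was found in 22 of the 30 (73.3%) and in 34.3% of the promoters of all 27457 genes in the table. A CHR-like element was found in 13 (43.3%, against 17.3%) and an E2F-like element in 7 (23.3%, against 5.32%). Both a CHR-like element and a CCAAT were found in 11 of the 30 (36.7%, against 6.22%). These are matches of letters, not binding sites. The 5 sequences below belong to genes whose levels are given in full later, and capitals mark the searched elements on either strand. *Rrm2*, *E2f1* and *Foxm1* had no entry.
Mki67: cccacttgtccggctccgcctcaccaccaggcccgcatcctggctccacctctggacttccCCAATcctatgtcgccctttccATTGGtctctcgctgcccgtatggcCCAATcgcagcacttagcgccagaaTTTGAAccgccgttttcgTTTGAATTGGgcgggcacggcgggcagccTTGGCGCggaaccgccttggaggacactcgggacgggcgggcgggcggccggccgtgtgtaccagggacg
Cdk1: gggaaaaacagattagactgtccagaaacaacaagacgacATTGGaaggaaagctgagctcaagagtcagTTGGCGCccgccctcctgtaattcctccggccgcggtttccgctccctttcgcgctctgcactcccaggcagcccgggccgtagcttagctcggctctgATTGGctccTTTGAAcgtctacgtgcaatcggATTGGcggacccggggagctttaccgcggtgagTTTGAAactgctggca
Ccnb1: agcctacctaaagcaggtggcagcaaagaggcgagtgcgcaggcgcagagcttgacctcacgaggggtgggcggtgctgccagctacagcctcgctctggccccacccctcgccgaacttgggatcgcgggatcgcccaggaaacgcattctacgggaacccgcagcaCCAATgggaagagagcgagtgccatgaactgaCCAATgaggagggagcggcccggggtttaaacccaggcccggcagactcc
Mcm2: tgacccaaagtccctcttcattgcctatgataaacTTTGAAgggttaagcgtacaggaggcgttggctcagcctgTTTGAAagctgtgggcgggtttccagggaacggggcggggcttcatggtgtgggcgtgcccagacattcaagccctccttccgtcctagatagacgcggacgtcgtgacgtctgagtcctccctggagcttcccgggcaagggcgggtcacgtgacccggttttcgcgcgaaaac
Pcna: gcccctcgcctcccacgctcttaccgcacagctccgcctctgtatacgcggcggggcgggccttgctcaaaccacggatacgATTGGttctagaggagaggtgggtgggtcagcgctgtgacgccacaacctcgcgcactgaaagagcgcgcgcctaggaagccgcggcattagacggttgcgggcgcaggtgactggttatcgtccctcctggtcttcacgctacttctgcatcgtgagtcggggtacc
*Mki67* and *Cdk1* held all 3 kinds of element, and in *Mki67* the CHR-like element 99 bases before the start shared its last letter with a reversed CCAAT. *Ccnb1* held 2 CCAAT and no CHR-like or E2F-like letters in this window. *Mcm2* held 2 CHR-like elements, and *Pcna* a single reversed CCAAT. The sequences lie on chr1:199952594-199952843 (minus strand, *Mki67*), chr20:19265043-19265292 (plus strand, *Cdk1*), chr2:33655226-33655475 (minus strand, *Ccnb1*), chr4:122918095-122918344 (minus strand, *Mcm2*) and chr3:139955821-139956070 (minus strand, *Pcna*), all of GRCr8.

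Levels are given on a log2 scale on which an array's mean over its probes is 0, and they compare arrays, not genes, because probes differ in brightness. A gene passed the test at an adjusted p under 0.05 in limma, with the Benjamini-Hochberg adjustment over all 35694 probes tested. The arrays were of similar quality in the 4 series: between 66.1% and 75.8% of spots were well above background in series A, B and C, and between 70.7% and 81.8% in series D. The 75th percentile of the processed signal ran from 1896 to 18416 in series A to C and from 3236 to 9939 in series D.

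The genes differed most clearly between series. All 40 were lower in series D than in the mean of series A, B and C, by a median of 1.94 on the log2 scale, which is 3.83-fold. Among all probes tested, 24.2% were lower and 28.9% higher in series D by the same rule. The differences ran from 7.75-fold for *Rrm2* to 1.42-fold for *Tyms*, and the largest adjusted p was 1.82e-05. In bulk RNA, fewer cells of a dividing type and less RNA per cell cannot be told apart.

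*Mki67*, the common marker of dividing cells, was at 4.97 on the lowest array of series A, 5.83 on the median and 6.28 on the highest. In series B these values were 5.62, 5.91 and 6.70, and in series C 5.33, 5.93 and 6.18. In series D they were 2.83, 3.92 and 4.78, so the highest array of series D lay below the lowest array of the others. The difference of series D was a fall of 4.24-fold (log2 difference -2.08 ± 0.12, SE, adjusted p = 1.22e-17 by limma).

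The mitotic kinase *Cdk1* gave the same picture. Its lowest, median and highest levels were 5.77, 6.46 and 6.89 in series A, 6.43, 6.75 and 7.75 in series B, and 5.89, 6.64 and 6.85 in series C. Series D stood at 3.38, 4.51 and 5.31, and the difference was -2.26 ± 0.14 (SE, adjusted p = 5.25e-17). Its partner *Ccnb1*, the cyclin of entry into mitosis, was at 1.78, 3.06 and 4.68 in series A, 2.10, 2.71 and 4.19 in series B, 2.01, 2.80 and 3.22 in series C, and 0.29, 1.14 and 1.74 in series D. Both genes separated series D from every other array, for *Ccnb1* by a narrow gap between 1.74 and 1.78.

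*Rrm2*, the subunit of ribonucleotide reductase whose amount rises in S phase, differed most. Its lowest, median and highest levels were 6.76, 6.93 and 7.85 in series A, 7.20, 7.40 and 7.75 in series B, 5.93, 6.88 and 7.28 in series C, and 3.17, 4.29 and 5.27 in series D. The difference was -2.95 ± 0.13 (SE, adjusted p = 2.82e-21), with no overlap between series D and the others. *Rrm1*, the partner subunit, which is made more evenly through the cycle, differed by -1.32 ± 0.08 (SE, adjusted p = 7.95e-18).

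The replication genes *Mcm2* and *Pcna* differed less. *Mcm2* stood at 5.20, 6.12 and 6.48 (lowest, median and highest) in series A, 5.70, 6.23 and 6.97 in series B, 5.23, 6.03 and 6.09 in series C, and 4.38, 4.52 and 5.13 in series D. *Pcna* stood at 5.61, 6.18 and 6.52, at 6.05, 6.25 and 6.51, and at 5.60, 5.96 and 6.14 in these 3 series, and at 4.67, 5.20 and 5.59 in series D. Series D lay below all other arrays for both, and the differences were -1.47 ± 0.10 for *Mcm2* (adjusted p = 3.4e-16) and -0.88 ± 0.07 for *Pcna* (adjusted p = 2.09e-13, both SE).

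Of the transcription factors, *Foxm1* was at 3.62, 4.02 and 4.60 in series A, 3.70, 4.04 and 4.40 in series B, 2.96, 3.93 and 4.16 in series C, and 1.31, 2.43 and 2.95 in series D. *E2f1* was at 3.88, 4.43 and 4.75, at 4.16, 4.46 and 4.75, and at 3.82, 4.32 and 4.51 in series A, B and C, and at 2.66, 3.87 and 4.23 in series D. *Foxm1* did not overlap, and *E2f1* did, since some arrays of series D reached the lower arrays of the other series. The differences were -1.73 ± 0.11 (adjusted p = 4.55e-16) for *Foxm1* and -0.87 ± 0.10 (adjusted p = 2.83e-09) for *E2f1* (SE).

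**Figure D1:**
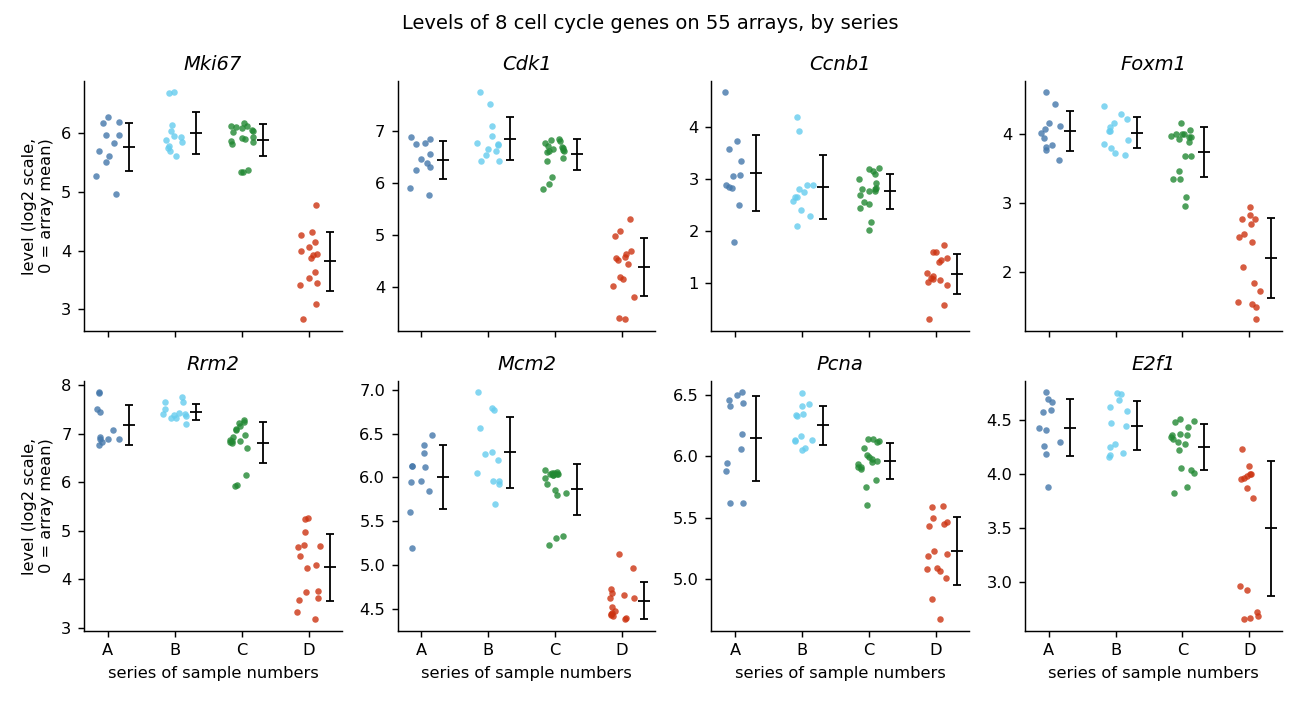
Levels of 8 cell cycle genes on 55 arrays (vertical axis, log2 scale with 0 at the mean of all probes of the array) by series of sample numbers (horizontal axis: 11, 12, 17 and 15 arrays in series A, B, C and D). Each point is an array and the bars are the mean ± SD. Series D lies below every other array for 7 of the genes, and for *E2f1* some of its arrays reach the others.

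By role, all 9 measured genes of origin licensing and the fork were lower in series D, with a median difference of -1.29, from -2.31 for *Mcm3* to -0.88 for *Mcm7*. The 4 genes of nucleotide supply had a median of -1.69 and the widest span, since *Rrm2* and *Tyms* lay at its ends. The 7 mitotic cyclins and kinases ran from -2.27 for *Ccna2*, the cyclin of S phase and early mitosis, to -1.55 for the spindle kinase *Aurka* (median -1.94). The 4 genes of the spindle checkpoint and of anaphase ran from -2.04 for the checkpoint kinase *Bub1b* to -1.63 for *Bub1* (median -1.87). The 3 kinetochore genes had a median of -2.18 and the 9 of the spindle and division one of -2.10. The genes at the weak end were those of replication, its start and its nucleotides: *Tyms*, *E2f1*, *Mcm7*, *Pcna* and *Mcm4* had the 5 smallest differences, and *Kif23*, a motor of the last step of division, came next at -1.09.

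**Figure D2:**
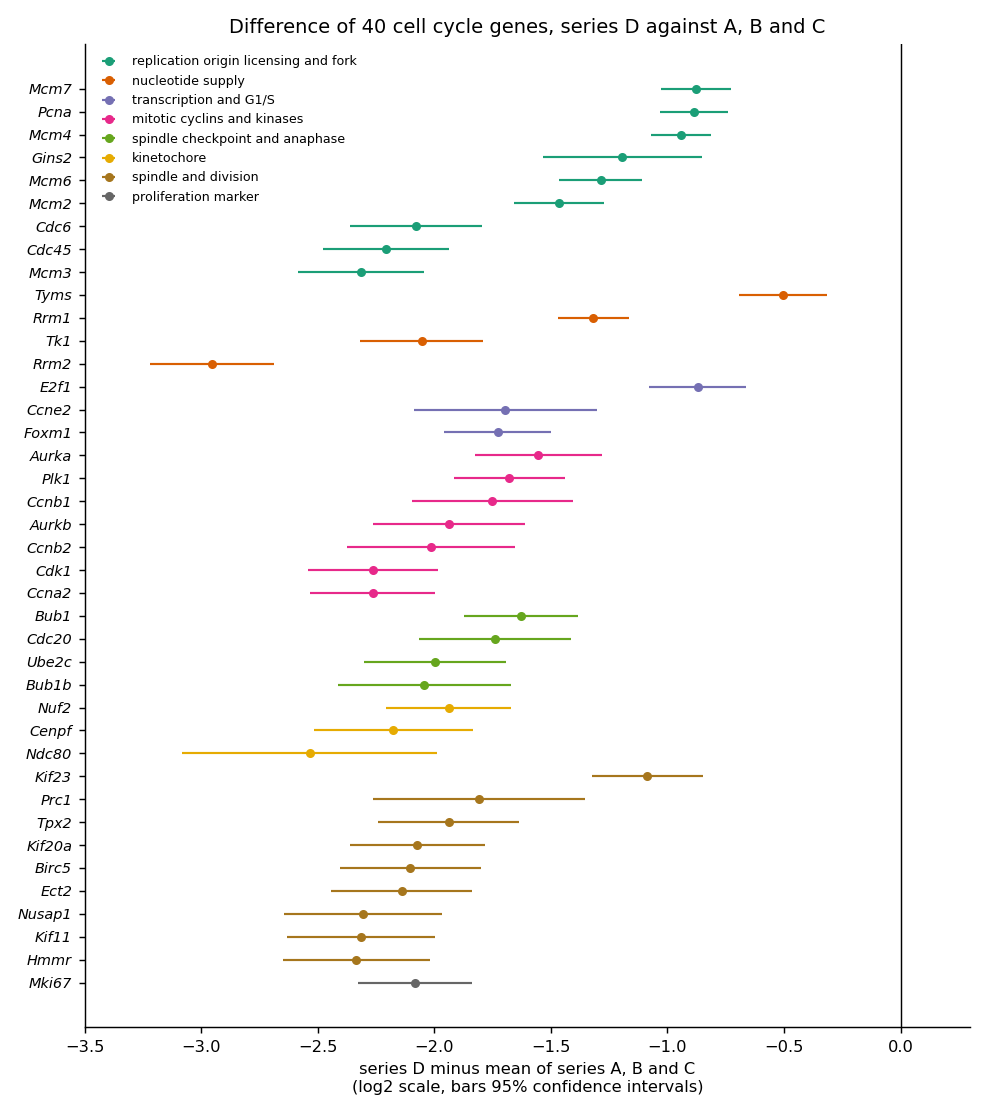
Difference between series D and the mean of series A, B and C for the 40 genes measured (horizontal axis, log2 scale), with 95% confidence intervals from limma. Genes (vertical axis) are coloured by role and ordered within it. All intervals lie below 0, from *Rrm2* at -2.95 to *Tyms* at -0.50.

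For *Hmmr*, a protein of the spindle with the third largest difference (-2.34 ± 0.16, SE, adjusted p = 6.91e-16), 6 of the 15 arrays of series D were well above background, so the fitted difference rests on values close to background there. *Ndc80*, which ties the kinetochore to microtubules, had the second largest difference and the widest error (-2.53 ± 0.27, SE, adjusted p = 2.7e-10), with levels from -2.66 to 2.12 in series D and from -0.53 to 4.48 in series A. For 24 of the 40 genes every array of series D was lower than every other array, as for 0.953% of all probes tested. The remaining 16 overlapped. The 40 genes have 60 probes in all, and 59 of these were lower in series D by the same test. The exception was the dimmest of 3 probes of *Mcm4* (difference -0.61, adjusted p = 0.0801).

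The difference was also present within each slide. The arrays lay on 7 slides, which were scanned separately, and each of the 7 slides held 2 or 3 arrays of series D beside 5 or 6 arrays of another series. The mean of all 40 genes was lower in series D on each of them, with medians from -1.45 on slide 1 to -2.17 on slide 6. For *Mki67* the differences ran from -1.46 to -2.50. With the slide as a block in the fit, all 40 genes were again called, at a median of -1.81. Sham and untreated control arrays alone gave 40 of 40 at a median of -1.85, beside 9556 of all probes in either direction.

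The other series were close to each other. The F test over the 4 series called all 40 genes, against 75.4% of all probes, and in every gene the lowest mean was that of series D. Series C against the mean of A and B called 13 genes, all lower, where 40.1% of all probes were called and 19.8% were called lower. The 3 with the largest changes were *Hmmr* (-1.12 ± 0.16, SE, adjusted p = 6.44e-07), the helicase subunit *Mcm6* (-0.75 ± 0.09, adjusted p = 2.42e-08) and *Cdc6*, which loads the helicase (-0.72 ± 0.15, adjusted p = 0.00014). Of the 9 measured licensing and fork genes 8 were among the 13, and of the 7 mitotic cyclins and kinases 0. With the replicate number of the titles as a block the count was 5, and from sham and control arrays alone it was 6. These counts are given without the share of all probes called. With the slide as a block the count stayed within 1.5 times the reported 13. In that fit *Hmmr* (-0.44, adjusted p = 0.35) and *Cdc6* (-0.34, adjusted p = 0.486) no longer passed, and *Mcm6* did. Series A against B called 2 genes, against 30.4% of all probes: *Tyms* was higher in A (0.38 ± 0.14, SE, adjusted p = 0.0287) and *Rrm1* lower (-0.29 ± 0.11, adjusted p = 0.0395). Neither call held with the slide as a block. Series A, B and C shared no slide with one another, so both of these comparisons were also comparisons between slides.

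Other cell cycle genes showed how far the pattern went. Of 61 further genes listed by name, 53 were matched and 52 tested, and 44 were lower in series D, 1 was higher and 7 were not called (median -1.13), beside the 24.2% of all probes that were lower and the 28.9% that were higher. They included *Mybl2*, a factor of late S phase (-2.67 ± 0.12, SE, adjusted p = 1.68e-21), *Mcm10* of the replication fork (-2.20 ± 0.13, adjusted p = 3.75e-17) and the checkpoint kinase *Ttk* (-2.34 ± 0.16, adjusted p = 7.35e-16). The largest difference was that of *Cdkn1c*, an inhibitor of cyclin-dependent kinases (-3.67 ± 0.20, adjusted p = 1.78e-18). The inhibitors *Cdkn1a* (0.24 ± 0.17, adjusted p = 0.221) and *Cdkn1b* (-0.01 ± 0.09, adjusted p = 0.953) did not pass the test. *Ccnd1*, the cyclin that answers to growth factors, was lower (-1.81 ± 0.14, adjusted p = 9.57e-14), and the phosphatase *Cdc25b* was the gene that was higher (0.26 ± 0.09, adjusted p = 0.015).

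Markers of other cell types moved with the series, and their counts stand against the same 24.2% of all probes lower and 28.9% higher. All 5 markers of oligodendrocyte progenitors, which divide in culture, were lower in series D: *Pdgfra* (-3.35 ± 0.14, SE), *Sox10* (-3.44 ± 0.27), *Cspg4* (-2.71 ± 0.14), *Olig2* (-2.41 ± 0.09) and *Olig1* (-1.70 ± 0.14), each with an adjusted p of 4.62e-13 or less. The summed level of this list ran from 7.05 to 9.04 in series D and from 9.53 to 11.4 in the others. Of 6 matched markers of neural progenitors 5 were lower and *Pax6* was higher, with summed levels of 9.29 to 10.3 in series D and 9.84 to 11.9 elsewhere. Of 9 markers of neurons 5 were higher and 0 lower, and the summed levels overlapped (10.2 to 11.3 in series D, 9.90 to 11.3 elsewhere).

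Of 9 astrocyte markers 3 were higher and 4 lower in series D, where 28.9% of all probes were higher and 24.2% lower. Among them *Gfap* was higher by 2.19 ± 0.16 (SE, adjusted p = 5.48e-15) and *Aldh1l1* was lower (-1.51 ± 0.12). The summed levels of the 9 markers were 10.4 to 11.4 in series D and 10.6 to 12.6 elsewhere. Of 10 matched markers of endothelial, mural and fibroblast cells 7 were higher and 0 lower, led by the collagens *Col3a1* (5.72 ± 0.20), *Col1a1* (4.82 ± 0.20) and *Col1a2* (4.35 ± 0.14). That list summed to 8.34 to 9.21 in series D and to 4.91 to 6.92 elsewhere, although the endothelial marker *Cldn5* was well above background on 6 arrays and *Flt1* on 4. Of 7 matched microglial markers 3 were higher and 2 lower, at summed levels of 2.88 to 5.06 in series D and 4.17 to 6.57 elsewhere, with *Csf1r* well above background on 7 arrays and *Tmem119* on 21. The part of these cell types in the difference of the cell cycle genes was not tested.

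**Figure D3:**
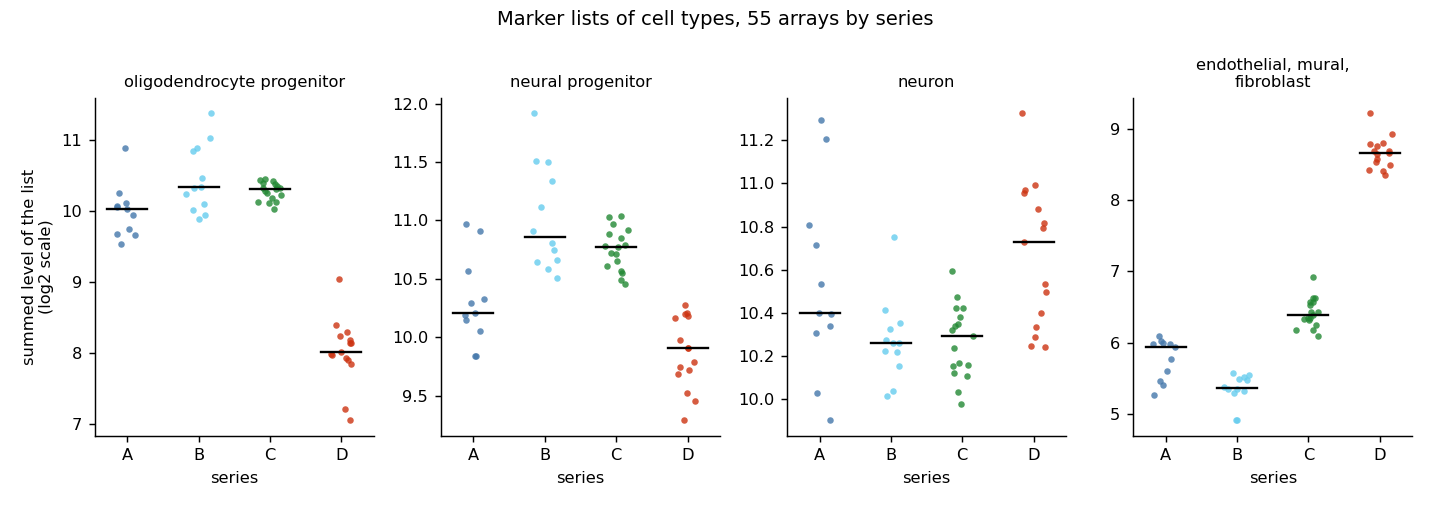
Summed level of 4 lists of marker genes (vertical axis, log2 scale, each panel with its own range) on 55 arrays by series. Each point is an array and each line the median of a series. Oligodendrocyte progenitor markers are lower in series D (7.05 to 9.04) and the list of endothelial, mural and fibroblast markers is higher (8.34 to 9.21).

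With the arms averaged and the series in the fit, few of the genes changed over the hours after stimulation by their brightest probes. The F test over the times called 8 of 40, against 27% of all probes. At 2 h, 0 genes differed from 0 h (limma, 0 at an unadjusted p under 0.05, 0% of all probes called), and at 8 h 0 (5 at an unadjusted p under 0.05, 2.37% of all probes called). At 24 h 3 genes were lower, where 5.39% of all probes were lower: *E2f1* (-0.46 ± 0.15, SE, adjusted p = 0.03), *Mcm6* (-0.40 ± 0.13, adjusted p = 0.0305) and *Mcm7* of the same helicase (-0.36 ± 0.11, adjusted p = 0.0203). At 48 h 6 were lower, where 13.4% of all probes were lower: *Rrm2* (-0.76 ± 0.18, adjusted p = 0.00188), *Mcm6* (-0.75 ± 0.12, adjusted p = 1.43e-05), *Foxm1* (-0.51 ± 0.16, adjusted p = 0.0138), *E2f1*, *Mcm7* and *Mcm4*. The count depended on the probe. Dimmer probes of *Rrm1* (-0.86, adjusted p = 0.000938 by limma), *Mcm3* (-0.73, 0.00122) and *Gins2* (-0.83, 0.00314) were called lower at 48 h. So were dimmer probes of *Mki67* (-0.59, 0.0231), *Ccna2* (-0.63, 0.0398) and *Ndc80* (-0.74, 0.0323), whose brightest probe stood at 0.46. Others, such as that of *Aurka* (-0.26, 0.289), did not pass. With the mean over the probes of a gene 9 genes were called. Without series D 2 genes were called at 48 h and from sham arrays alone 0. Both counts are given without the share of all probes called, so they do not set these genes apart from other probes. With the slide as a block 3 of the genes were called (5918 probes), of which only 1 was lower and the others higher. The median over the 40 genes turned from -0.24 to 0.33. *Mcm6* was still lower at 48 h without series D and with the slide block, while *Rrm2* and *Foxm1* passed in neither, and the 3 calls at 24 h were lost in both.

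That average hid courses that differed between the series. The F test of series by time, on 51 arrays of the 3 stimulation arms, called all 40 genes, against 41.7% of all probes. The median level of the 40 genes rose to a peak at 24 h in series B and had its lowest value at 48 h in series C and in series D. Series A and B had 1 to 3 arrays at each time, so that not every arm was present at both times compared within them, and series C and D had 3.

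In series B, 26 of the 40 genes were higher at 24 h than at 0 h (median difference over all 40 genes 0.88, 14.3% of all probes higher). *Ccnb1* stood at 2.10, 2.29 and 2.41 on the arrays of 0 h and at 3.94 and 4.19 on those of 24 h, a difference of 1.80 ± 0.29 (SE, adjusted p = 1.89e-05). *Cdc20*, which starts anaphase, rose by 1.78 ± 0.20 (adjusted p = 5.44e-08), and *Mki67* went from 5.62, 5.70 and 5.74 to 6.68 and 6.70. The genes that rose were mainly those of mitosis. A rise was called in 8 of 9 genes of the spindle and division, 6 of 7 mitotic cyclins and kinases and all 4 checkpoint genes, but in 2 of 9 licensing and fork genes, whose median was 0.07. At 48 h 8 genes of series B were still above 0 h (15.1% of all probes) and 2 were below (18.6%), namely *Mcm6* (-1.01 ± 0.17, adjusted p = 1.58e-05) and *Tyms* (-0.60 ± 0.18, adjusted p = 0.0112).

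Series A had a single array at 24 h, of the 1 Hz arm, against 1 sham and 1 iTBS array at 0 h, so that time, arm and array cannot be told apart and no test is given. The median level of the 40 genes was 4.71 on it and 3.85 and 4.01 on the arrays of 0 h. At 48 h, with 3 arrays, 15 genes were higher (12.3% of all probes) and 2 lower (9.31%), *Mcm6* and *Mcm4*.

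In series C 0 genes were called at 24 h (limma, 5 at an unadjusted p under 0.05, 0.754% of all probes called), and 24 were lower at 48 h, against 2.12% of all probes (median -0.68). *Mki67* stood at 5.93, 6.06 and 6.09 at 0 h and at 5.33, 5.35 and 5.38 at 48 h (-0.68 ± 0.15, SE, adjusted p = 0.00537). *Rrm2* stood at 7.23, 7.24 and 7.28 at 0 h and at 5.93, 5.95 and 6.15 at 48 h (-1.24 ± 0.22, adjusted p = 0.000343). In both genes every array of 48 h lay below every array of 0 h, and the fall took in genes of every role.

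In series D 16 genes were lower at 24 h (8.92% of all probes) and 30 at 48 h (10.9%), with medians of -0.46 and -0.86. *E2f1* fell in a step: it was between 3.78 and 4.23 on the 9 arrays of 0, 2 and 8 h and between 2.66 and 2.96 on the 6 arrays of 24 and 48 h (-1.23 ± 0.13 at 24 h, SE, adjusted p = 3.33e-08). *Mki67* went from 3.92, 4.07 and 4.31 at 0 h to 3.45, 3.53 and 3.63 at 24 h and 2.83, 3.08 and 3.40 at 48 h (-0.995 ± 0.154 at 48 h, adjusted p = 1.45e-05). *Rrm2* went from 4.48, 4.66 and 5.27 to 3.17, 3.32 and 3.61 at 48 h (-1.44 ± 0.22, adjusted p = 9.73e-06). *Mcm2* did not pass the test at 48 h (-0.09 ± 0.15, adjusted p = 0.7). All 7 mitotic cyclins and kinases and 8 of 9 genes of the spindle and division were among the 30, and 4 of 9 licensing and fork genes.

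**Figure D4:**
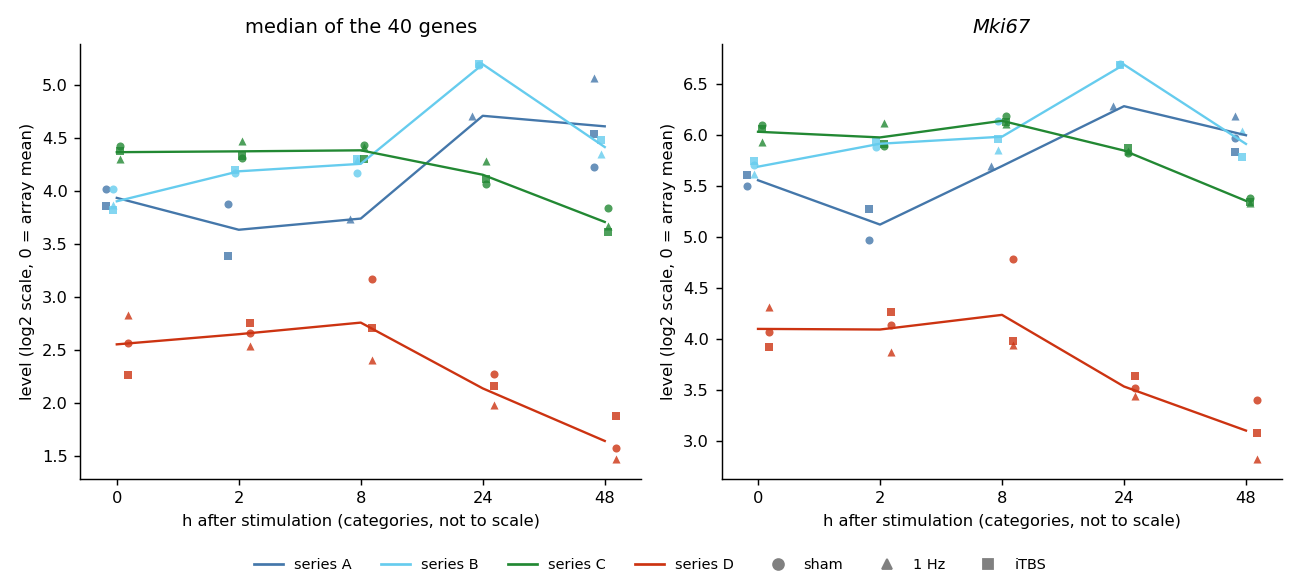
Median level of the 40 cell cycle genes (left) and level of *Mki67* (right) on 51 arrays (vertical axes, log2 scale with 0 at the mean of all probes of the array) at the 5 times after stimulation (horizontal axes, categories). Points are arrays, marked by arm, and lines join the means of a series. Series B peaks at 24 h, and series C and D are lowest at 48 h.

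Time and slide overlapped within a series: in series A, B and C the arrays of 0 h and those of 48 h never shared a slide, and series D ran through the slides in order of time. With the slide as a block, the calls within series C and D were lost, as were the higher calls at 48 h in series B. The 24 genes lower at 48 h in series C became 0 (median over all 40 genes -0.81, 0.0028% of all probes lower). In series D the 16 lower at 24 h became 0 (0.0336% of all probes), and the median over all 40 genes went from -0.46 to -0.04. The 30 lower at 48 h became 0 (median -0.57, 0.0168% of all probes). In series B the 26 higher at 24 h became 12 (median 0.94, 2.05% of all probes), the 8 higher at 48 h became 0 (3.17%) and the 2 lower at 48 h became 1 (4.1%). In series A the 15 higher at 48 h became 21 (median 0.78, 12.5% of all probes) and the 2 lower became 0 (7.51%). The F test of series by time then called 31 of 40, a count given without the share of all probes called in that fit. Time and slide cannot be fully told apart here.

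The gap of series D was wider at the late times. At 0 h all 40 genes were lower in series D than in the mean of the others (median -1.58, 14% of all probes lower), as they were at 2 h (-1.39, 11.8%). At 8 h 37 were called lower (-1.54, 12.4%), and at 24 h (-2.51, 15.6%) and 48 h (-2.46, 17.8%) again 40. Series A entered the means at 8 and 24 h with 1 array each. The change of the gap from 0 to 48 h was itself tested, and 25 genes had a wider gap at 48 h, where 8.13% of all probes moved that way. They were led by *Nusap1*, which stabilizes spindle microtubules (-1.64 ± 0.20, SE, adjusted p = 2.11e-06), and *Aurka* (-1.42 ± 0.17, adjusted p = 1.4e-06). With the slide as a block the change was called in 0 genes (median -0.64, 0.0196% of all probes), and the gap itself in 36 at 0 h (6.17% of all probes lower) and 36 at 48 h (2.51%).

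Against this spread, no effect of either protocol was called. For 1 Hz against sham at the same time 0 of 40 genes passed at any of the 5 times (limma, 0 also at an unadjusted p under 0.05), where 0.0084% of all probes did. For iTBS the count was 0 (0 at an unadjusted p under 0.05), where 0.0056% of all probes did. Averaged over the times, 1 Hz and iTBS called 0 genes each, as they called 0% of all probes. A difference of the protocols' effects between the times was called in 0 of 40 genes (0 at an unadjusted p under 0.05, 0.0028% of all probes called).

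At 48 h *Mki67* stood at 3.40, 5.38 and 5.97 on the sham arrays, at 2.83, 5.33, 6.03 and 6.19 on the 1 Hz arrays and at 3.08, 5.35, 5.79 and 5.83 on the iTBS arrays. The lowest value of each group is its array of series D, and the groups overlapped throughout. The differences from sham were 0.18 for 1 Hz (95% confidence interval -1.53 to 1.89) and 0.09 for iTBS (-1.62 to 1.81), and the intervals of the differences averaged over the times were -0.91 to 0.69 for 1 Hz and -0.78 to 0.75 for iTBS. These intervals hold the spread between series. With each series at each time as a block the differences at 48 h were -0.11 for 1 Hz (-0.42 to 0.20) and -0.19 for iTBS (-0.50 to 0.12), and the intervals of the averages over the times were -0.25 to 0.05 for 1 Hz and -0.21 to 0.06 for iTBS.

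The genes with the smallest p in each comparison did not pass either. For 1 Hz these were *Tyms* at 0 h (-0.44 ± 0.32, SE), *Cdc6* at 2 h (-0.81 ± 0.99), the G1 cyclin *Ccne2* at 8 h (-1.0 ± 0.81), *Pcna* at 24 h (-0.41 ± 0.41) and *Kif23* at 48 h (0.53 ± 0.51). For iTBS they were *Tyms* at 0 h (-0.38 ± 0.30), *Gins2* at 2, 8 and 48 h (-0.41 ± 0.58, 0.45 ± 0.67 and 0.56 ± 0.63) and *Mcm6* at 24 h (-0.17 ± 0.61). *Tyms* had the smallest p in both averages over the times (-0.09 ± 0.15 for 1 Hz and -0.11 ± 0.14 for iTBS). Every adjusted p was 1.

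The series are spread unevenly over the groups, and the direction of the medians depended on how that was treated. The median over the 40 genes of 1 Hz minus sham at 2 h was -0.29 from group means, 0.22 when series was a block and -0.10 when each series at each time was one. The last of these compares arrays of the same series and time, and its typical SE was the smallest of the 3 fits. It called 0 genes for either protocol. At an unadjusted p under 0.05 there were at most 10 genes, for 1 Hz at 8 h (median -0.24), beside 1637 of all 35694 probes. Then came 8 for iTBS at 0 h (median -0.15), beside 5794 probes, and 6 for 1 Hz at 48 h (median 0.10), beside 5133 probes. Taken pair by pair over all times, the median over the 40 genes was higher with 1 Hz in 4 of 13 pairs, from -0.71 to 0.62, and higher with iTBS in 7 of 17 pairs, from -0.38 to 0.35. At 0 h the median was lower with iTBS in all 4 series, from -0.21 to -0.09, and at 8 h it was lower with 1 Hz in all 3 series that had the pair, from -0.71 to -0.06. At the other times, and in the other arm at these times, the pairs went both ways.

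**Figure D5:**
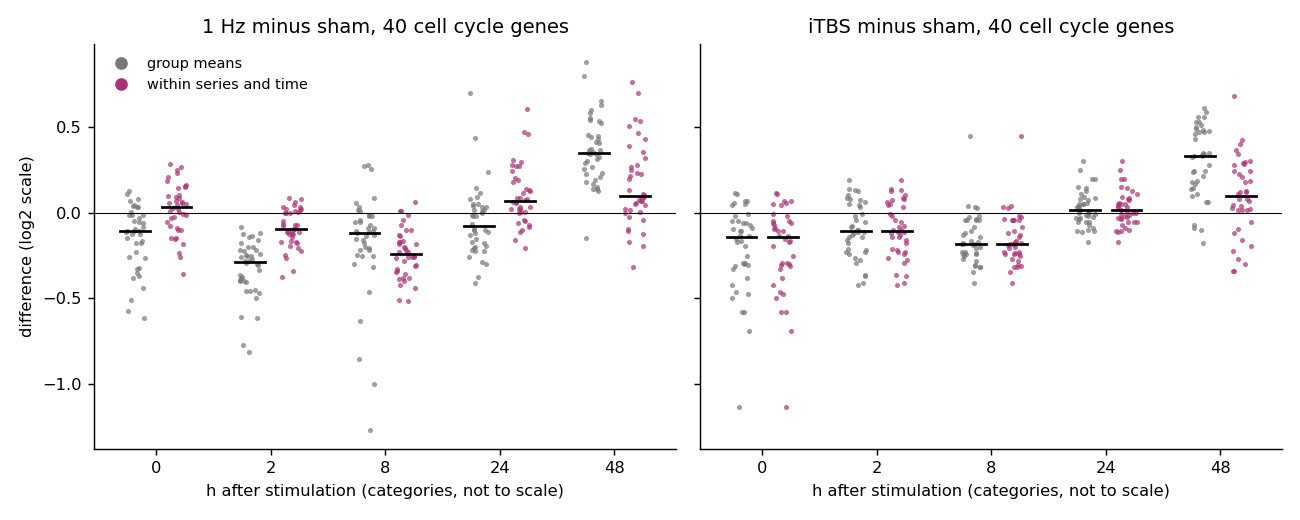
Differences between stimulated and sham cultures for 40 cell cycle genes (points, vertical axis on the log2 scale) at 5 times (horizontal axis, categories), from group means (grey) and within series and time (purple). Lines are medians over the genes. No gene passed the test in either fit.

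The untreated control cultures differed from sham cultures at 0 h in 0 of 40 genes (limma, 0 at an unadjusted p under 0.05, 0.0028% of all probes called). *Mki67* stood at 5.96, 6.01, 6.04 and 6.17 in the untreated controls and at 4.07, 5.50, 5.70 and 6.09 in sham. *Tyms* had the smallest p (0.39 ± 0.30, SE, adjusted p = 1). All 40 differences were above 0, with a median of 0.52, but the 4 controls belonged to series A and C, whereas the sham arrays included 1 each of B and D. When series was a block the median fell to 0.09, and 28 of 40 differences were above 0. With each series at each time as a block the median was 0.04, and 22 of 40 were above 0. That fit called 0 of the 40 genes and 63 of all 35694 probes.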

How the data were processed

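Total RNA had been labelled with Cy3 and hybridized to Agilent rat arrays. The deposited scanner files, made by the authors with Feature Extraction 12.0.3.1, give a background-corrected processed signal per spot, an intensity that was not normalized between arrays (build rn4 per the file headers). The values in the deposited series matrix are a score, the z-score the authors computed within each array, which was reproduced within 0.005 and used as an alternative.

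Here log2 processed signals of the deposited files were averaged per probe without outlier spots, and 420 probes lacking a value were dropped. Following the study's methods, values were converted to z-scores within each array, and these were multiplied by the median SD of 4.06. Probes well above background on fewer than 3 arrays were not tested, which left 35694. Symbols came from a RefSeq table (GRCr8) by accession without version, for 46.3% of probes. The study filtered by ANOVA, then tested pairs of groups. Here groups were fitted in limma 3.58.1 (R 4.3.3), with the series as a term for comparisons of series and times, or as 20 means of series and time. Intervals are at 95%. The array with the misplaced grid correlated with the others at -0.01 and was left out. The other 55 correlated at 0.94 to 0.99, no spot was saturated, and the number of arrays limits the precision.

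Genes with values in full were *Mki67*, *Cdk1*, *Ccnb1*, *Rrm2*, *Mcm2*, *Pcna*, *E2f1* and *Foxm1*. Each comparison over all series also gave up to 3 called genes with the largest change, or else the gene with the smallest p. Genes named within single series, the wider-gap genes and the examples from the other lists were chosen after their values were seen. The members and lists were chosen with earlier results of these data known. Scripts were tested on simulated data. Alternatives covered scaling, background correction (median signals with normexp, offset 50, since the mean signal was not used), the dim filter, probe choice, all 56 arrays, single arrays left out, and blocks. Fits within series, by time and without series D were added after seeing the data. Promoters are the first entry of each gene, and figures were drawn with matplotlib 3.10.9.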

Additional observations from a re-analysis of the deposited data

Results flagged for a closer look

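The courses over time differed between the series in all 40 genes (F test of series by time, limma). Adjusted p-values were 4.11e-05 for *Ccnb1*, 0.00468 for *Cdc6*, 2.88e-08 for *Cdk1*, 6.48e-07 for *E2f1*, 0.000184 for *Foxm1*, 0.0275 for *Hmmr*, 4.56e-05 for *Mcm2* and 0.000152 for *Mcm6*. They were 0.0101 for *Mcm7*, 5.42e-07 for *Mki67*, 0.00177 for *Ndc80*, 0.00503 for *Pcna*, 0.00132 for *Rrm1*, 0.000357 for *Rrm2* and 0.000919 for *Tyms*.

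In the 8 groups of 4 arrays, an array can be checked for lying far from the other 3. Over 15 named genes this was the case in 10 of 120 checks. The rule flags about 5% by chance, but that share is no yardstick here. Some of the genes were named for their large difference in series D, and all were checked on the same arrays. In each of the 10 the array far from the rest was the lowest and belonged to series D. It happened in 2 groups for *Foxm1*, *Rrm1* and *Rrm2*, and in 1 group for *Cdk1*, *Mcm2*, *Ndc80* and *Pcna*. The groups were sham at 0 h and 2 h, 1 Hz at 8 h and iTBS at 0 h and 2 h.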

How the results depend on the processing

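Apart from leaving out single arrays, 117 recomputed counts of called genes stayed within 1.5 times the reported count and 24 did not. For series A against B the 2 genes became 0 with 75th percentile scaling, all 56 arrays, the slide as a block and sham and control arrays alone, 1 without the dim filter and with the mean over probes, 4 with the replicate block beside the series, and 5 at 0, 2 and 8 h alone. For series C against A and B the 13 became 4 with all 56 arrays, 5 with the replicate block and 6 from sham and control arrays alone. At 48 h the 6 became 10 with quantile normalization, 0 with all 56 arrays and 3 with the slide as a block, of which 1 was lower. They became 0 without the series in the design, 0 from sham arrays alone and 2 without series D. The F test over the times gave 1, 3, 0, 0 and 1 under the last 5 of these instead of 8. With all 56 arrays 1 Hz against sham called 9 genes and series by time called 8, and that setting differs only by the array with the misplaced grid. All counts of this paragraph are given without the share of all probes called under the same setting. The 9 genes are therefore no evidence of a response particular to the cell cycle genes. For the other settings the cause was not tested.

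Leaving out 1 array at a time gave 0 to 5 for series A against B, 12 to 16 for C against A and B, 5 to 11 for 48 h, 6 to 12 for the times, 37 to 40 for series by time, 40 each for the series and for series D, and 0 for each comparison of a protocol or control with sham. The 48 h count was 11 without sham 48 h replicate 1 or 1 Hz 48 h replicate 1, and 10 without 1 Hz 0 h replicate 1. The count for A against B was 0 without 1 Hz 48 h replicate 2 or iTBS 48 h replicate 2, 5 without iTBS 2 h replicate 3, and 1 without untreated control replicate 1 or 4, sham 0 h replicate 2, sham 2 h replicate 1, iTBS 0 h replicate 1, iTBS 2 h replicate 1 or iTBS 48 h replicate 1. At 24 h the calls of *E2f1*, *Mcm6* and *Mcm7* were lost in 8, 7 and 3 of these 55 fits (highest adjusted p 0.111, 0.113 and 0.0658), on leaving out sham 0 h replicate 4, sham 24 h replicate 3, 1 Hz 0 h replicate 2 or 3, 1 Hz 24 h replicate 1 or 3, iTBS 0 h replicate 2 or 4, or iTBS 24 h replicate 1 or 3. Of the uncalled differences from sham, that of *Cdc6* at 2 h turned to 0.13 without 1 Hz 2 h replicate 3, that of *Gins2* at 8 h to -0.19 without sham 8 h replicate 3 and -0.09 without iTBS 8 h replicate 1, and that of *Mcm6* at 24 h to 0.34 without sham 24 h replicate 1 and 0.30 without iTBS 24 h replicate 3.

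The replicate numbers of the titles did not pair the arrays: deviations from group means correlated at 0.16 on average for the same number in different groups, with a lowest value of -0.462, against 0.398 for the same series. With the replicate block 0 genes were called against sham, 40 between series, 38 in series D, 9 over the times and 9 at 48 h.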
